A study of Mus musculus with 48 samples.

Results

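The 68 genes described here belong by name to families of enzymes that write and erase chemical marks on histones and on DNA. A family name does not show that each member acts on histones or DNA. They were chosen by name from the 24062 gene symbols in the count files: every symbol that consists of Hdac, Sirt, Dnmt, Tet, Kdm, Ezh, Ehmt, Kat, Prmt or Setd and a number matched, which gave 71, and Kdm5c, Kdm5d and Kdm6a were then left out by name, for 3 in all. Hdac6 and Hdac8, on chromosome X, stayed in the set. The rule itself uses names and no measured value. By family name, the set holds 4 DNA methyltransferases, 3 methylcytosine dioxygenases (Tet), 11 histone deacetylases (Hdac), 7 sirtuins, 7 lysine acetyltransferases (Kat), 13 lysine methyltransferases (Ezh, Ehmt and Setd), 15 histone demethylases (Kdm) and 8 arginine methyltransferases (Prmt).

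Histone acetylation loosens chromatin and is removed by the zinc-dependent Hdac enzymes and the NAD-dependent sirtuins. Methylation of lysine and arginine can mark active or silent genes depending on the residue. Most Kdm enzymes remove it from lysine, with iron and 2-oxoglutarate as cofactors. Dnmt enzymes methylate cytosine, and Tet enzymes oxidise the methyl group as a first step of its removal. Alcohol and inflammatory stimuli have both been studied for effects on these marks in brain.

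The tissue was medial prefrontal cortex from mice of the C57BL/6 strain, and poly(A) RNA was sequenced. In a drinking experiment, 1 group drank 15% (v/v) ethanol voluntarily on alternate days over 60 days, with water on the days between, and was killed as soon as the bottles came off. The other group had water for the same 60 days. Of each mouse's minced tissue, 1% was kept as total homogenate, a mixture of all cell types. What remained was dissociated, freed of myelin in Percoll and passed over CD11b magnetic beads to capture microglia, the resident macrophages of the brain. In a separate experiment, mice received 1 intraperitoneal injection of saline or of 1.5 mg/kg lipopolysaccharide (LPS, a bacterial cell wall component) and microglia were taken 1 week later. The 47 libraries used came from 9 water and 10 ethanol homogenates and from microglia of 8 water, 10 ethanol, 5 saline and 5 LPS mice. CD11b is also carried by other myeloid cells, so the beads do not separate microglia from them. Sex and age were not given in the labels used here.

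Reads counted in genes ranged from 9720478 to 67544237 per library. The capture was clear in the markers: the summed level of 12 homeostatic microglial genes was 33848 ± 3442 CPM (counts per gene scaled to a common library total; SD, n = 8) in water microglia and 620 ± 54.6 CPM (n = 9) in water homogenate, and 10 neuronal genes summed to 85.6 and 12564 CPM. The microglia of water mouse 19 stood apart: its 8 neutrophil genes summed to 15213 CPM, against 37.2 to 282 in the other 7 libraries of the group, and its 12 proliferation genes to 1022 CPM, against 104 to 162.

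Promoter sequences are shown for the members on which the results turn and for which RefSeq held an entry: those among the highest and lowest in microglia relative to homogenate with at least 10 CPM in some group (Kdm2b, Kdm3a, Prmt8 and Sirt3), and 2 that were called in a treatment or cohort comparison (Setd8 and Hdac5). Entries matched 58 of the 68 members. Each sequence runs 5′ to 3′ along the gene's strand in build GRCm38.p6, from 250 bases before the start site to 50 bases after it. Capitals mark 5 motifs searched on both strands: GGGCGG (GC box), GAGGAA (core of the site of PU.1, a myeloid transcription factor), TGACGT (cAMP response half-site), CACGTG (E-box) and CCAAT. Matches on the other strand appear as their reverse complements.
Kdm2b, chr5:122989050-122989349, minus strand: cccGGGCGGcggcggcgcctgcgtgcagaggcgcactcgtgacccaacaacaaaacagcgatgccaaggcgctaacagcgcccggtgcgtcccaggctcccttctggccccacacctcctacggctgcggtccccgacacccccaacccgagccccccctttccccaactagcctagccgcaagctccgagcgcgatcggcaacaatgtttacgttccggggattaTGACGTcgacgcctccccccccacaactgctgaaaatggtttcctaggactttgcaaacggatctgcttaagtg
Kdm3a, chr6:71632868-71633167, minus strand: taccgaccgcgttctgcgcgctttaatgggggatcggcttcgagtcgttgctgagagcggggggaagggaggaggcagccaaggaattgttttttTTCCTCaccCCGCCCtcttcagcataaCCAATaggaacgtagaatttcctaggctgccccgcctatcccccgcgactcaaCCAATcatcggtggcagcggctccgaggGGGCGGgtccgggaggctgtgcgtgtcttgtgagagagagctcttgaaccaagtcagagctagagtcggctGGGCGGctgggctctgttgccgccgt
Prmt8, chr6:127769110-127769409, minus strand: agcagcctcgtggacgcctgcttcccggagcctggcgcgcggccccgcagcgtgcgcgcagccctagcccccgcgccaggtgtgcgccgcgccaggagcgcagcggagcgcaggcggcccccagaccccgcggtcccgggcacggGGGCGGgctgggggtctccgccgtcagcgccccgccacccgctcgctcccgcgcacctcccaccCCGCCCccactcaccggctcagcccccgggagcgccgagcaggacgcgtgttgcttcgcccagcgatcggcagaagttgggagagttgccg
Sirt3, chr7:140882260-140882559, minus strand: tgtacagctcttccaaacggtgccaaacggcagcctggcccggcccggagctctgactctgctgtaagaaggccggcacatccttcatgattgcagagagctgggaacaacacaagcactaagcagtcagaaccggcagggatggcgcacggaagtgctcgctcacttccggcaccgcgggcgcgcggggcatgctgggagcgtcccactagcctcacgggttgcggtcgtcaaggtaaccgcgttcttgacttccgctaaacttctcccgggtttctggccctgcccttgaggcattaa
Setd8 (Kmt5a), chr5:124439680-124439979, plus strand: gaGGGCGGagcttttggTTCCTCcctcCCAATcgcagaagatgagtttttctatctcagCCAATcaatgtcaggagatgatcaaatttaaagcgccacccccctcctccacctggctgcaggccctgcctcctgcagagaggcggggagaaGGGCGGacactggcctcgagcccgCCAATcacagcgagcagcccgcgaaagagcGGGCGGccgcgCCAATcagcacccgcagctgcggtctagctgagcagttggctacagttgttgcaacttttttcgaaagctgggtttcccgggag
Hdac5, chr11:102230123-102230422, minus strand: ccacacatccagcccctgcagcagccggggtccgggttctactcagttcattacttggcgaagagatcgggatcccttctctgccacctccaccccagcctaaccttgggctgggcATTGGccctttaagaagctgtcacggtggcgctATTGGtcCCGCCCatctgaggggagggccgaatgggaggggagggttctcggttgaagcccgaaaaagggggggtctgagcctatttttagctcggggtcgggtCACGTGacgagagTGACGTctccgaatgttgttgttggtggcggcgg
The median ratio of observed to expected CpG was 0.77 over the 58 member promoters and 0.39 over all promoters. Kdm3a held 3 GC boxes, 1 GAGGAA and 2 CCAAT matches, Kdm2b held 1 GC box and 1 TGACGT, Prmt8 held 2 GC boxes, and the Sirt3 window held none of the 5. Setd8 held 3 GC boxes, 4 CCAAT and 1 GAGGAA match. Hdac5 held CCAAT matches at -134 and -101 and a GC box at -94 from its start site, and an E-box and a TGACGT downstream of that site. The GC box stood in 35 of the 58 member promoters (60.3%) and in 35.9% of 32544 distinct promoters of the same length. TGACGT stood in 10 member promoters (17.2%) and in 7.55% of all promoters. GAGGAA stood in 8 of 27 promoters of members higher in microglia of water mice (29.6%) and in 4 of 24 of those lower (16.7%), against 28.1% of all. E-boxes stood in 6 member promoters (10.3%) and 7.17% of all, and CCAAT in 26 (44.8%) and 37.4%. A match is a description of letters, not of a bound factor.

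The first question was how microglia differ from the surrounding tissue, which the water mice and the ethanol mice each address. Microglia held more RNA of histone demethylases and lysine acetyltransferases and less of histone deacetylases than homogenate, as a share of each library. In water mice, 35 members were higher in microglia and 25 lower among 67 tested (edgeR quasi-likelihood test, Benjamini-Hochberg adjusted p under 0.05 over 15057 genes). Of all genes tested 84.4% were called in this comparison, 35.3% higher and 49.1% lower, and 85.1% had an unadjusted p under 0.05. The median log2 fold change was 0.21 over the members and -0.37 over all genes. In ethanol mice, 36 members were higher and 21 lower, where 84.5% of all genes were called, 38.8% higher and 45.6% lower, and 85.0% had an unadjusted p under 0.05. The ethanol split depended on the scaling: with RLE in place of TMM size factors, 31 members were higher and 27 lower, and the median of all genes moved from -0.21 to -0.43. Under RLE, Ezh1, Kat2a, Kdm1a, Prmt1 and Prmt6 were no longer called higher, and Dnmt1, Kdm4b, Prmt7, Setd3, Setd8 and Sirt6 were called lower. Water and ethanol mice share no library. Of the 60 members called in water mice, 56 (93.3%) were called in the same direction in ethanol mice, as were 93.1% of the calls among all genes tested in both, and no member was called in opposite directions. In bulk samples, fewer cells of a type and less RNA per cell cannot be told apart. The share of all genes without overlap between the preparations was not counted. A lack of overlap given below for single members therefore has no such baseline.

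**Figure D1:**
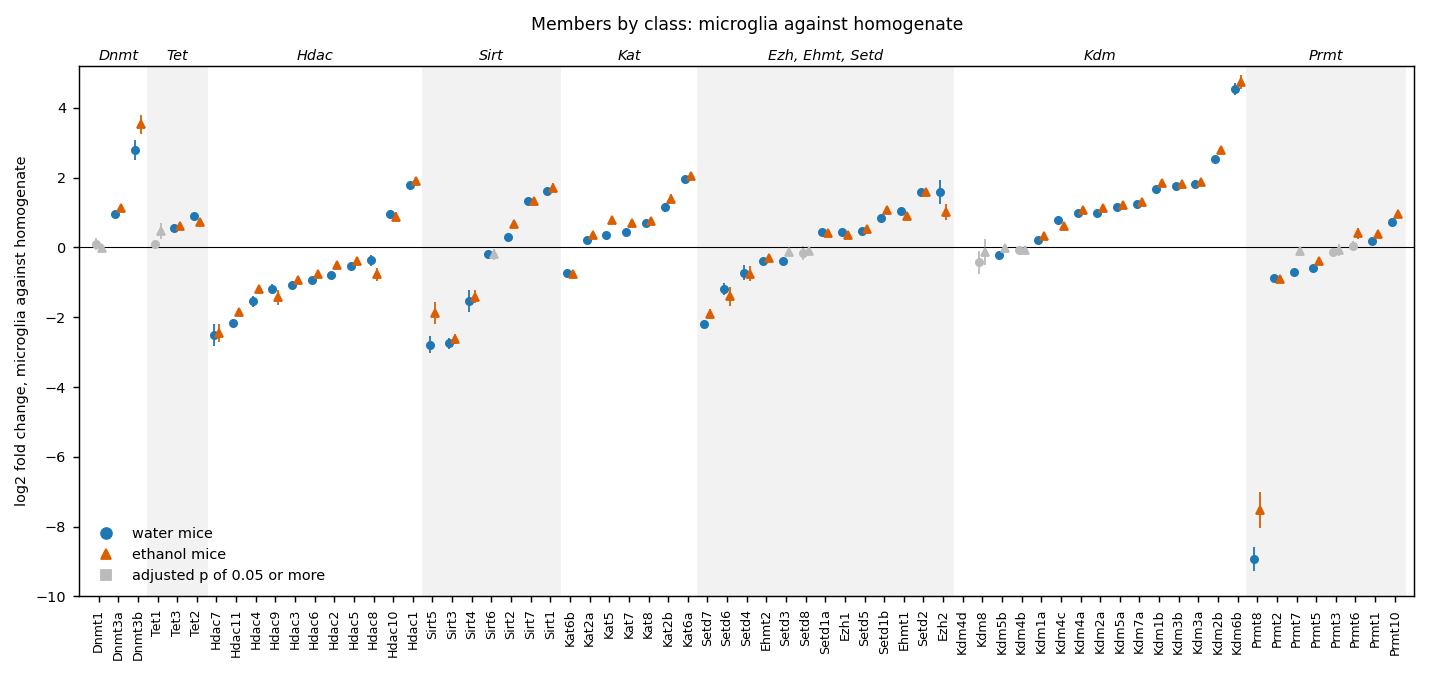
Log2 fold change of microglia against homogenate (vertical axis) for 66 of the 67 tested members, grouped by family, in water mice (circles) and ethanol mice (triangles). Bars show the SE from edgeR, and grey marks an adjusted p of 0.05 or more. Kdm4d has no point because every microglial library of these mice was at 0 counts. Most Hdac genes lie below 0 and most Kdm genes above it, with Kdm6b highest.

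Among the histone demethylases, 11 of 15 were higher in microglia of water mice and 2 lower, and the class median was 1.00 on the log2 scale. The 2 lower were Kdm4d, which was not tested under the stricter filter, and Kdm5b at -0.22 (SE 0.06), whose call was lost without the microglia of water mouse 19. Kdm6b, which removes methyl groups from lysine 27 of histone H3 and is known as an inflammation-inducible gene of macrophages, stood far above the others. It lies at chr11:69398508-69413675 on the minus strand of GRCm38. Its level ran from 42.5 to 86.2 CPM (median 65.9) in water homogenate and from 1012 to 1955 CPM (median 1484) in water microglia, and the groups did not overlap. The log2 fold change was 4.54 (SE 0.17, adjusted p = 2.146e-14). In ethanol mice homogenate ran from 41.7 to 133 CPM and microglia from 1247 to 2420 CPM, also without overlap, and the log2 fold change was 4.74 (SE 0.21). Per kilobase of exon, Kdm6b was the most abundant member in water microglia at 215 ± 47.7 CPM per kb, ahead of the acetyltransferase Kat6a at 41.7 ± 4.01 (SD, n = 8). It made up 56.6% of the summed per-kilobase level of the 15 demethylases in water microglia and 10.1% in water homogenate. Without it the class still summed to 162 ± 14.6 CPM per kb in water microglia and 86.3 ± 2.62 in water homogenate.

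Immediate early genes, which dissociation of tissue can induce, moved with the microglial libraries. The 12 listed summed to 32062 ± 4167 CPM in water microglia and 1306 ± 352 CPM in water homogenate, and 10 of the 12 were higher in microglia. Their part in the Kdm6b difference was not tested, and dissociation, bead capture and cell type cannot be told apart in this design.

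**Figure D2:**
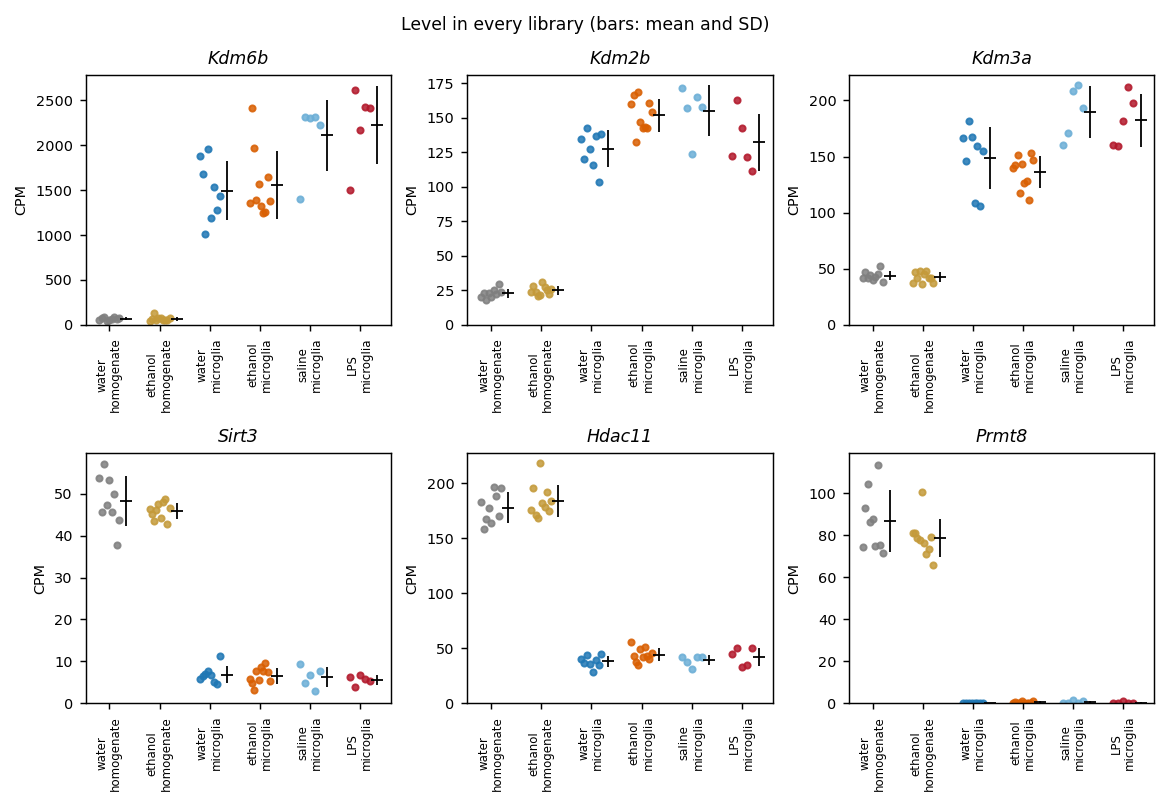
CPM (vertical axes, linear from 0) of 6 members in each of the 47 libraries, by group on the horizontal axis, with the group mean and SD beside the points. Kdm6b, Kdm2b and Kdm3a lie higher in all 28 microglial libraries than in any homogenate, and Sirt3, Hdac11 and Prmt8 lie lower.

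Kdm2b, a demethylase of lysine 36 of histone H3 that also recruits Polycomb complexes to unmethylated CpG islands, ran from 18.4 to 29.6 CPM in water homogenate and from 103 to 143 CPM in water microglia. The groups did not overlap, and the log2 fold change was 2.55 (SE 0.08). In ethanol mice its median was 24.7 CPM in homogenate, with at most 30.7, and microglia ran from 133 to 168 CPM, a log2 fold change of 2.80 (SE 0.08). Kdm3b, which acts on lysine 9 of histone H3, had a mean of 81.1 ± 4.93 CPM in water homogenate and 258 ± 15.8 CPM in water microglia, a log2 fold change of 1.75 (SE 0.05). Its relative Kdm3a rose by 1.83 (SE 0.09) and Kdm1b by 1.67 (SE 0.10). Kdm4d went the other way: it had 374 counts over the 9 water homogenates, at 0.326 to 1.21 CPM, and none in the 8 water microglial libraries. Against the floor of 3 counts over that group, it was at least 57.5-fold lower in microglia of water mice. Kdm4b and Kdm8 did not pass the test in either kind of mice with TMM scaling. Exons of Kdm2b overlap those of Rnf34 on the other strand.

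Lysine acetyltransferases leaned the same way, with 6 of 7 higher in microglia and 1 lower in both kinds of mice with TMM scaling. Kat6a, which acetylates histone H3, ran from 88.4 to 121 CPM in water homogenate and from 324 to 431 CPM in water microglia, with no overlap and a log2 fold change of 1.98 (SE 0.07). Ethanol mice gave 87.4 to 148 CPM in homogenate and 281 to 441 CPM in microglia, a log2 fold change of 2.06 (SE 0.09). Its close relative Kat6b was the exception, at 66.7 to 81.3 CPM in homogenate and 34.6 to 49.5 CPM in microglia, a log2 fold change of -0.73 (SE 0.06). The summed level of the 7 genes was 119 ± 11.9 CPM per kb in water microglia and 72.4 ± 2.10 in water homogenate.

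Histone deacetylases showed the reverse, with 9 of 11 lower in microglia and 2 higher in both kinds of mice, and the class median was -0.93 in water mice. Among the 9, the Hdac8 call in water mice, at -0.36 (SE 0.16), was lost with the mouse as replicate block and with the stricter filter. It was also lost without the homogenate of water mouse 16, 17, 18, 19, 21 or 26, or the microglia of water mouse 16, 18, 19 or 25. Hdac11, the only class IV enzyme, ran from 158 to 197 CPM in water homogenate and from 28.6 to 44.6 CPM in water microglia. There was no overlap, and the log2 fold change was -2.15 (SE 0.08, adjusted p = 2.67e-14). In ethanol mice Hdac11 ran from 169 to 218 CPM in homogenate and from 35.0 to 55.3 CPM in microglia, and changed by -1.86 (SE 0.09). Hdac7, a class IIa enzyme abundant in endothelium, ran from 42.1 to 59.1 CPM in water homogenate and from 1.78 to 20.5 CPM in water microglia. It changed by -2.50 (SE 0.31), or by -2.64 without the microglia of water mouse 19, and its exons overlap those of Slc48a1 on the other strand. The class I enzyme Hdac1 was an exception: it ran from 14.3 to 22.9 CPM in homogenate and from 44.3 to 69.4 CPM in microglia, a log2 fold change of 1.80 (SE 0.11). Its paralog Hdac2, with which it shares repressor complexes, went down, from 56.5 ± 3.64 to 31.0 ± 6.69 CPM, a log2 fold change of -0.79 (SE 0.10). Hdac10 was the other member to rise, by 0.95 (SE 0.13).

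The sirtuins divided. Sirt1 and Sirt7, which work in the nucleus and nucleolus, rose by 1.61 (SE 0.10) and 1.33 (SE 0.07) in water mice, and Sirt2, abundant in oligodendrocytes, by 0.29 (SE 0.12). The Sirt2 call was lost without the homogenate of water mouse 16, 18, 19, 21 or 25, or the microglia of water mouse 18 or 21. Exons of Sirt7 overlap those of Mafg on the same strand. The 3 mitochondrial members fell: Sirt3 changed by -2.75 (SE 0.15), Sirt4 by -1.53 (SE 0.31) and Sirt5 by -2.79 (SE 0.25). Sirt3 ran from 37.8 to 57.1 CPM in water homogenate and from 4.53 to 11.2 CPM in water microglia, with no overlap. Sirt5 was low, from 7.30 to 9.67 CPM in homogenate and 0.566 to 1.75 CPM in microglia, also without overlap. The same 3 fell in ethanol mice, Sirt3 by 2.63, Sirt4 by 1.41 and Sirt5 by 1.87. Sirt6 was the remaining member called lower in water mice, so the lower calls were not confined to the mitochondrial members. Its call was lost with the mouse as replicate block, with the stricter filter and in most fits that left out 1 library. With TMM scaling it was not called in ethanol mice. Exons of Sirt3 overlap those of Psmd13 and Ric8a on the other strand, and the strand setting of the counting is not given in the sources used here.

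Of the lysine methyltransferases, 7 of 13 were higher in microglia of water mice and 5 lower. Setd2, the enzyme that trimethylates lysine 36 of histone H3, ran from 72.9 to 90.4 CPM in homogenate and from 179 to 282 CPM in microglia, with no overlap and a log2 fold change of 1.59 (SE 0.06). Setd7, a monomethyltransferase, ran from 215 to 314 CPM in homogenate and from 39.1 to 73.7 CPM in microglia, again without overlap, a log2 fold change of -2.19 (SE 0.11). In ethanol mice Setd7 ran from 196 to 257 CPM and from 35.5 to 83.8 CPM, and changed by -1.91 (SE 0.14). Ezh2, the catalytic subunit of Polycomb repressive complex 2, was higher by 1.59 (SE 0.34), and by 1.25 without water mouse 19.

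No DNA-modifying enzyme was called lower in microglia of water mice. Dnmt3a, a de novo methyltransferase, ran from 114 to 141 CPM in water homogenate and from 198 to 285 CPM in water microglia, with no overlap and a log2 fold change of 0.95 (SE 0.06). Dnmt3b rose by 2.80 (SE 0.28) from a low level, 1.01 ± 0.380 CPM in homogenate and 6.62 ± 2.18 CPM in microglia. The maintenance enzyme Dnmt1 did not pass the test, with a log2 difference of 0.10 (SE 0.18) that was -0.0025 without the microglia of water mouse 19, and Dnmt3l was near 0 in every group and was not tested. Tet2 rose by 0.91 (SE 0.07) and Tet3 by 0.57 (SE 0.10), and Tet1 did not pass the test.

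Arginine methyltransferases gave 2 higher and 4 lower of 8 in water mice. Of the 2 higher, the Prmt1 call, at 0.19 (SE 0.07), was lost with the replicate block, without a filter and without the microglia of water mouse 18 or 24. Prmt8, a membrane-anchored enzyme of neurons, ran from 71.4 to 113 CPM in water homogenate and from 0 to 0.309 CPM in water microglia. The log2 fold change was -8.92 (SE 0.35), and -7.52 in ethanol mice. Prmt8 passed the filter on low counts here through homogenate and did not pass it in comparisons among microglia alone. Its microglial level lay near 0, so the size of its change is not well determined. Neuronal marker genes were lower in water microglia, all 10 of 10. So were 8 of 8 astrocyte, 8 of 8 oligodendrocyte and 5 of 5 oligodendrocyte precursor genes. Of 7 endothelial genes 6 were lower and 1 higher. The part of any cell type in the Prmt8 difference was not tested. Prmt10 (Prmt9 in the annotation) ran from 13.1 to 16.5 CPM in water homogenate and from 15.4 to 29.8 CPM in water microglia. It rose by 0.74 (SE 0.11), although these groups overlapped, and Prmt2 and Prmt5 changed by -0.87 (SE 0.10) and -0.59 (SE 0.08).

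Other genes of the same pathways, listed by role, changed in both directions as well. Of 30 further writers, 16 were higher in microglia of water mice and 10 lower, of 9 tested erasers 7 were higher and none lower, and of 43 complex partners 21 were higher and 13 lower. Of all genes tested 84.4% were called there, 35.3% higher and 49.1% lower, so being called does not set these lists apart. Ep300, an acetyltransferase and coactivator, was higher by 1.83 (SE 0.06), Brpf1, a scaffold of Kat6 complexes, by 1.77 (SE 0.06) and Suv420h2, a methyltransferase of histone H4, by 2.39 (SE 0.08). In ethanol mice the writers gave 16 higher and 8 lower of 30, the erasers 7 and 0 of 10 and the partners 22 and 12 of 43. Of all genes 84.5% were called in ethanol mice, 38.8% higher and 45.6% lower. The smallest p among the companion genes in ethanol mice belonged to Ncoa3, a nuclear receptor coactivator, at 2.72 (SE 0.07), Mta2, a subunit of the NuRD complex, at 2.23 (SE 0.07), and Brpf1 at 1.93 (SE 0.07).

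The second question was whether voluntary ethanol drinking changed these genes. In microglia none of the 65 members tested was called (edgeR quasi-likelihood test; 0.00756% of all genes were called), nor was any by DESeq2 or limma voom. A p that misses the threshold does not show that levels did not differ. At an unadjusted p under 0.05 there were 8 members, where 7.65% of all genes lay below it. The median log2 difference was -0.03 over the members and -0.01 over all genes. The smallest p belonged to Kdm2b, which ran from 103 to 143 CPM (median 131) in water and from 133 to 168 CPM (median 151) in ethanol microglia. The groups overlapped, and the log2 difference was 0.22 (SE 0.06, adjusted p = 0.2754). Next were Prmt7 at 0.31 (SE 0.11, adjusted p = 0.4619), Kat2b at -0.26 (SE 0.10, adjusted p = 0.4709) and Tet3 at -0.21 (SE 0.08, adjusted p = 0.5364), all with overlapping groups. None of the companion genes tested was called. Setd8 had a difference of -0.41 that was -0.10 without water mouse 19, and Ezh2 one of -0.58 that was -0.07.

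In homogenate, 1 of 67 members was called, Setd8 (Kmt5a), the monomethyltransferase of lysine 20 of histone H4 known for its role in the cell cycle; 0.808% of all genes were called, 0.611% higher and 0.197% lower. Setd8 ran from 38.7 to 53.2 CPM (median 46.6) in water and from 29.7 to 41.3 CPM (median 38.4) in ethanol homogenate. Ethanol libraries lay mostly below, but the groups overlapped. The log2 fold change was -0.29 (SE 0.07, adjusted p = 0.04149). It lies on the edge of the threshold: the call was lost in 13 of 19 fits that left out 1 library, and was kept without ethanol mice 1, 3 or 13 or water mice 15, 19 or 24, with adjusted p from 0.0313 to 0.0869. The share of reads outside genes was 27.1 ± 4.20% in ethanol and 22.5 ± 1.91% in water homogenate. With that share as a covariate the log2 difference was -0.31 and the adjusted p 0.3774, and no gene of any kind was called. The sequencing sheet of each library is not stated, and sets of libraries were inferred from numbers in the file names. Within them the difference was -0.28 in set 1 and -0.40 in set 2, neither called. Oligodendrocyte genes, all 8 of 8, had negative differences, with a median of -0.73 and none called. Border macrophage genes were negative in 8 of 8, with a median of -0.59, and homeostatic microglial genes positive in 11 of 12, with a median of 0.13, again with none called. The oligodendrocyte genes summed to 1433 to 12260 CPM in water and 1497 to 7567 CPM in ethanol homogenate, and 3 of 12 immediate early genes were called higher. Their part in the Setd8 difference was not tested.

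Lysine methyltransferases held 8 of the 17 members with an unadjusted p under 0.05 in homogenate, where 16.1% of all genes lay below it. Setd8, Setd7 and Setd3 had negative differences, at -0.29, -0.24 and -0.12, and Ehmt2, Setd1a, Setd2, Setd4 and Setd6 positive ones, from 0.14 to 0.36. Ehmt2, the methyltransferase G9a of lysine 9 of histone H3, was nearest to the threshold after Setd8, at 0.17 (SE 0.05, adjusted p = 0.08232). DESeq2 called 4 members, Ehmt2 and Setd4 higher and Setd7 and Setd8 lower.

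**Figure D3:**
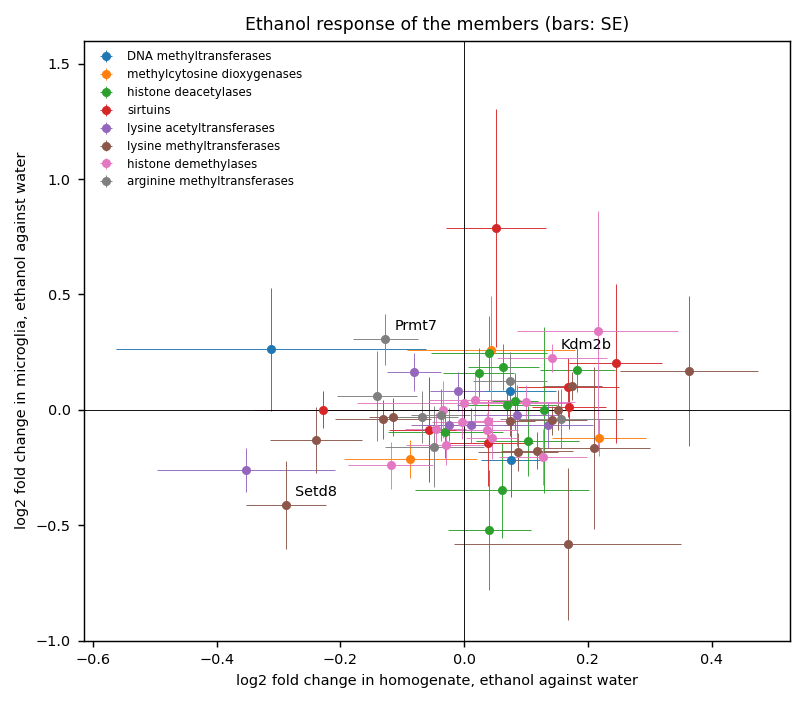
Log2 fold change of ethanol against water in microglia (vertical axis) and in homogenate (horizontal axis) for the members tested in both, coloured by class, with SE bars. Setd8 is negative on both, and Prmt7 is positive in microglia and negative in homogenate.

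Whether the ethanol response differed between microglia and homogenate was tested in a fit over all 4 drinking groups. Prmt7, which monomethylates arginine, was the 1 member of 67 called, where 0.342% of all genes were called, 0.158% higher and 0.184% lower. It ran from 33.3 to 42.2 CPM in water and from 30.7 to 37.1 CPM in ethanol homogenate, and from 19.3 to 25.5 CPM in water and from 21.3 to 34.7 CPM in ethanol microglia. The groups overlapped within each preparation. The difference between the responses was 0.46 on the log2 scale (SE 0.11, adjusted p = 0.04964), from 0.31 in microglia and -0.13 in homogenate, neither of which was called alone. With the mouse as a replicate block the difference was 0.48 and the adjusted p 0.2579, and the call was kept in 7 of 37 fits that left out 1 library. All 8 oligodendrocyte genes had positive differences between the responses, with a median of 1.43. Border macrophage genes were positive in 8 of 8, with a median of 0.31. Neutrophil genes were negative in 8 of 8 (median -2.55), monocyte genes in 5 of 5 (median -2.95) and proliferation genes in 11 of 12 (median -1.80). In the neutrophil, monocyte and proliferation lists the microglia of water mouse 19 had the highest sum of the water group. Median sums in water and ethanol microglia were 138 and 327 CPM for neutrophil genes and 86.3 and 97.6 CPM for monocyte genes. For proliferation genes they were 146 and 153 CPM. None of these marker genes was called, and their part in the Prmt7 difference was not tested. Exons of Prmt7 overlap those of Smpd3 on the other strand. Among the companion genes, Gadd45g and Jmjd6 were called in the same fit, at -1.22 (SE 0.27) and 0.44 (SE 0.10). At an unadjusted p under 0.05 there were 7 members, where 12.4% of all genes lay below it.

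**Figure D4:**
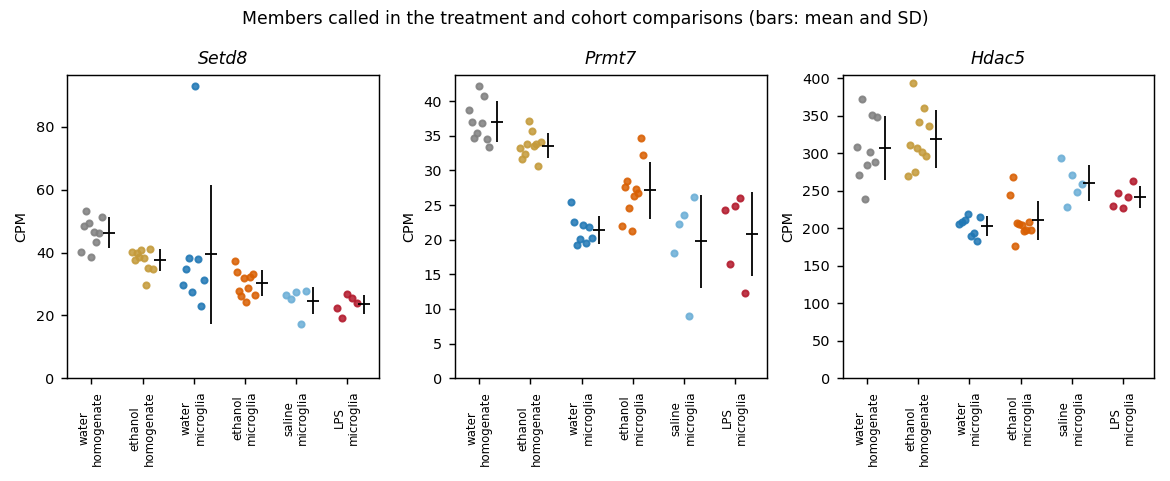
CPM (vertical axes, linear from 0) of Setd8, Prmt7 and Hdac5 in every library of the 6 groups, with mean and SD. Setd8 in ethanol homogenate overlaps water homogenate, 1 water microglial library of Setd8 lies at 92.9 CPM, and Hdac5 in saline microglia lies above all water microglia.

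The third question was what remained 1 week after LPS. None of 65 members was called between LPS and saline microglia (edgeR; 0.0160% of all genes were called), nor by DESeq2 or limma voom, and 5 had an unadjusted p under 0.05, where 5.78% of all genes lay below it. The SE of the 4 members with the smallest p ran from 0.11 to 0.30 on the log2 scale. Kdm7a, a demethylase of histone H3 and H4 lysines, had saline values of 109, 181, 205, 220 and 223 CPM and LPS values of 204, 235, 257, 262 and 296 CPM. The groups overlapped, with saline mouse 38 lowest, and the log2 difference was 0.42 (SE 0.15, adjusted p = 0.7173). Kdm3b and Kdm5a also had positive differences, at 0.30 and 0.39, and Hdac10 a negative one at -0.77. Kdm6b was at 2113 ± 397 CPM in saline and 2226 ± 432 CPM in LPS microglia (SD, n = 5 each), and was low in saline mouse 38 at 1406 CPM and in LPS mouse 33 at 1506 CPM.

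Saline microglia and water microglia come from different experiments, so injection, cohort, handling and sequencing set cannot be told apart in their comparison. Of 65 members, 1 was called, Hdac5, a class IIa deacetylase that shuttles between nucleus and cytoplasm, where 0.832% of all genes were called, 0.794% higher and 0.0378% lower. At an unadjusted p under 0.05 there were 13 members, where 11.6% of all genes lay below it. Hdac5 was at 229, 248, 259, 270 and 293 CPM in saline microglia, and ran from 183 to 219 CPM (median 207) in water microglia. The groups did not overlap, and the log2 fold change was 0.40 (SE 0.08, adjusted p = 0.02155). The call was lost without saline mouse 46, 48 or 49, with adjusted p up to 0.0688. Without the microglia of water mice 19 and 24 it was 0.40 (adjusted p = 0.04383). Differences were negative for 7 of 7 tested neutrophil genes (median -3.32), 5 of 5 monocyte genes (median -2.92), 7 of 7 endothelial genes (median -0.57) and 9 of 10 tested proliferation genes (median -2.02). The microglia of water mouse 19 had the highest neutrophil, monocyte and proliferation sums of the water group. Median sums in saline and water microglia were 157 and 138 CPM for neutrophil genes and 77.8 and 86.3 CPM for monocyte genes. For proliferation genes they were 169 and 146 CPM, and for endothelial genes 121 and 183 CPM. None of these marker genes was called, and their part in the Hdac5 difference was not tested. LPS microglia were at 226 to 262 CPM, within the saline range or just below it. Kdm6b had a difference of 0.54 (SE 0.14, adjusted p = 0.09799) and was called without saline mouse 38, at 0.65, as was Sirt1 at 0.62. Among the companion genes Gadd45b, a stress-inducible gene linked to DNA demethylation, was higher by 0.91 (SE 0.16).

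Across all 6 groups, the sums of demethylases, lysine acetyltransferases, deacetylases and arginine methyltransferases did not overlap between homogenate and microglia. Overlap was not counted for sums of other genes, and 84.4% of all genes were called between the preparations in water mice. The lack of overlap therefore cannot be read as setting these classes apart. Demethylases summed to 96.1 ± 4.20 and 96.5 ± 10.97 CPM per kb in water and ethanol homogenate, and to 377 ± 51.7, 381 ± 59.0, 458 ± 71.4 and 487 ± 57.6 in water, ethanol, saline and LPS microglia. Acetyltransferases summed to 72.4 ± 2.10 and 70.1 ± 4.02 in homogenate, and to 119 ± 11.9, 119 ± 7.76, 112 ± 7.47 and 110 ± 4.69 in microglia. Deacetylases summed to 144 ± 7.34 and 149 ± 6.05 in homogenate, and to 82.5 ± 7.77, 84.9 ± 5.66, 96.2 ± 15.1 and 82.6 ± 4.77 in the same order of microglia. Arginine methyltransferases were at 83.4 ± 6.47 and 79.95 ± 5.94 in homogenate and had means between 34.4 and 41.6 in microglia. These sums include Prmt8, with exons of 2724 bases and means of 86.7 CPM in water homogenate and 0.159 CPM in water microglia. A sum without Prmt8 was not taken, so the gap cannot be read as one of the whole class. Lysine methyltransferases overlapped between preparations, at 162 ± 1.59 in water homogenate and 151 ± 14.3 in water microglia. The sums of sirtuins, DNA methyltransferases and Tet enzymes overlapped as well. Sirtuins were at 51.1 ± 5.26 and 49.6 ± 2.72 in homogenate, and at 56.4 ± 4.67, 58.4 ± 4.49, 61.4 ± 4.57 and 59.5 ± 8.80 in microglia. DNA methyltransferases were at 17.1 ± 0.686 and 17.8 ± 2.26 in homogenate and had means between 24.9 and 25.5 in microglia. Tet enzymes ran from 9.53 to 14.4 in water and from 8.98 to 16.8 in ethanol homogenate and had means between 16.4 and 19.2 in microglia. Within each preparation, the ranges of water and ethanol libraries overlapped in all of these sums. Per kilobase, the most abundant members of water homogenate were Ehmt2 at 50.7 ± 3.69, Hdac11 at 46.3 ± 3.62 and Hdac5 at 35.0 ± 4.89 CPM per kb (SD, n = 9), of which Ehmt2 was also among the 3 highest in all 4 microglia groups.

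Levels of some members rested on the microglia of water mouse 19, and these members were chosen after their values were seen. Dnmt1 was at 145 CPM in this library and at 46.8 to 64.3 CPM in the other 7 water microglia, Ezh2 at 33.4 and 5.299 to 11.02 CPM, and Setd8 at 92.9 and 22.9 to 38.2 CPM. Neutrophil, proliferation and monocyte genes were high in the same library, monocyte genes at 2100 CPM against 51.3 to 120 in the others, and their part in these levels was not tested.

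**Figure D5:**
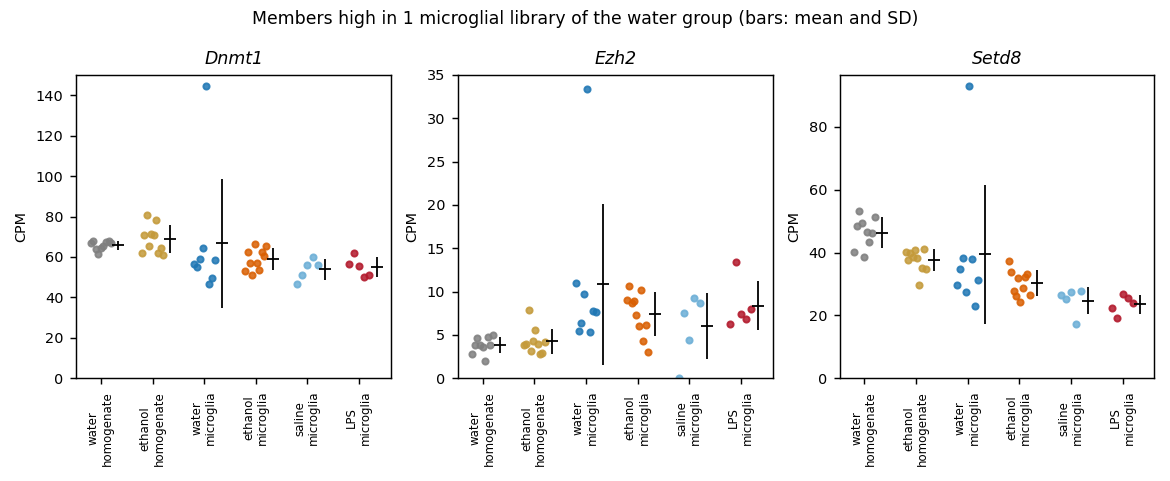
CPM (vertical axes, linear from 0) of Dnmt1, Ezh2 and Setd8 in every library of the 6 groups, with mean and SD. The microglial library of water mouse 19 lies at 145, 33.4 and 92.9 CPM, above every other microglial library.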

How the data were processed

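Gene counts from 47 libraries were analysed; 1 listed water microglia sample had no file here and was not analysed. The counts were deposited by the authors as whole, unnormalised reads per gene. Per the submitters' processing notes, the tools were bcl2fastq 2.15.0.4, STAR, FastQC, HTSeq and DESeq2, with build mm10; per the labels' protocols, libraries were poly(A)-selected, directional, and amplified in PCR. Replicates are separate mice. The 5 tally rows that name no gene were left out; they held 0.148 to 0.479% ambiguous reads, and reads outside genes were 19.9 to 56.1% of uniquely aligned reads. Even counts made up 49.7 to 75.2% of counts, more often in microglia, and the cause was not tested.

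The members and companion lists were chosen with earlier results of these data known. edgeR 4.0.16 (R 4.3.3) was fitted per comparison on its own groups to all genes passing filterByExpr, with TMM scaling, the quasi-likelihood F-test and Benjamini-Hochberg adjustment over all genes tested (threshold 0.05). The SE was taken as |log2 fold change|/√F. CPM uses the total in genes, and CPM per kb the union of exons in GENCODE (GRCm38). The fits were checked on data simulated with the same spread for every gene and no far library. That check does not bear on calls near the threshold. Alternatives were RLE scaling, no filter or a stricter filter, DESeq2 1.42.0, limma 3.58.1 voom, each library left out and the mouse as replicate block. Others were the share of reads outside genes, sheet sets inferred from numbers in the file names and, added after seeing the data, fits within those sets. In some comparisons the microglia of water mice 19 and 24, which stand out by their own measured values, were also left out together. Homogenate and microglia with the same number come from the same mouse, per the labels' protocols; deviations of the 18 pairs correlated with a median of 0.03 (-0.05 to 0.12). Named members were all those called where 12 or fewer were, otherwise the smallest p in each direction per class and the 8 largest changes, and the 4 smallest p where none was called; other members named in the text were chosen after their values were seen. Exons of 12 members overlap a coding gene. Sheet sets are inferred and are not a batch stated by the labels.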

Additional observations from a re-analysis of the deposited data

Results flagged for a closer look

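In groups of 5 to 10 samples, 1 library was called far from the rest where its gap to the nearest library was large relative to the range of the group (Dixon's 95% criterion). Of 145 groups of values examined 20 held such a library. Chance gives about 1 in 20 for independent groups, but these share libraries, and class sums contain the named genes. Dnmt1, Ezh2 and Setd8 in water microglia were also added after their values were seen, so that rate cannot be set against the count. No explanation was weighed.

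The microglia of water mouse 19 accounted for 4. Dnmt1 was at 145 CPM there, against 46.8 to 64.3 in the other water microglia, Ezh2 at 33.4 CPM against 5.299 to 11.02, Hdac7 at 20.5 CPM against 1.78 to 10.4, and Setd8 at 92.9 CPM against 22.9 to 38.2. In this library all 8 neutrophil genes and 11 of 12 proliferation genes were above every other water microglial library, and their part in these levels was not tested. Without it, in water mice Setd8 was called lower in microglia than in whole tissue (log2 -0.32, adjusted p = 0.002825 by edgeR), where it was -0.16 and not called with it.

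The homogenate of ethanol mouse 3 accounted for 7, all high. Dnmt3a was at 199 CPM against 116 to 158, Kat6a at 148 CPM against 87.4 to 104, Kat6b at 119 CPM against 68.2 to 86.4 and Kdm6b at 133 CPM against 41.7 to 74.9. The summed levels of DNA methyltransferases at 23.1, histone demethylases at 125 and lysine acetyltransferases at 80.4 CPM per kb were also the highest of the group. The remaining 9 were spread over 6 mice. In microglia of water mouse 24, Kat2b was low at 53.6 CPM, and the sums of histone deacetylases at 64.1 and of lysine methyltransferases at 117 CPM per kb were low. That library had the fewest reads in genes, 9720478, and the largest share of reads outside genes, 56.1%. The part of depth and of that share in these low values was not tested. In homogenate of ethanol mouse 7, Prmt8 was high at 100.6 CPM and the arginine methyltransferases at 95.4 CPM per kb. Sirt7 was low in microglia of ethanol mouse 2 at 50.6 CPM. Demethylases were low in microglia of saline mouse 38 at 331 CPM per kb, acetyltransferases were low in homogenate of water mouse 15 at 67.9 CPM per kb, and sirtuins were high in microglia of LPS mouse 50 at 74.4 CPM per kb.

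Prmt7 differed between the ethanol responses of microglia and homogenate, by 0.46 on the log2 scale, by the interaction term of the edgeR fit (SE 0.11, adjusted p = 0.04964). With the mouse as replicate block the adjusted p was 0.2579, and the call was lost in 30 of 37 fits that left out 1 library.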

How the results depend on the processing

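Counts of called members between microglia and homogenate kept within 1.5 times of 60 (water mice) and 57 (ethanol mice) under every alternative run, with 57 to 59 in both when 1 library was left out, and 57 and 56 with the mouse as replicate block. No member called there changed sign, library omissions aside. No member was called for ethanol in microglia or for LPS under any alternative run. The cause of the moves that follow was not tested. In homogenate the count of 1 for ethanol went to 0 without a filter, with reads outside genes as covariate and within either inferred sheet set, to 4 with DESeq2, and ran from 0 to 2 when 1 library was left out. The saline count of 1 went to 5 with DESeq2 and ran from 0 to 3. The count of 1 for the difference between ethanol responses went to 0 with RLE scaling, without a filter, with the stricter filter and with the replicate block, and ran from 0 to 1. All genes called went from 123 to 534 for ethanol in homogenate, from 110 to 326 for saline and from 54 to 265 for the difference when DESeq2 replaced edgeR, and from 1 to 48 and 2 to 67 for ethanol in microglia and LPS. Fits within a sheet set were chosen after seeing the data. Depth was lowest in the microglia of water mouse 24, at 9720478 reads in genes.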
